A study of Homo sapiens with 6 samples.

Results

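The genes described here are the numbered zinc finger genes of human chromosome 19, those whose symbol is ZNF followed by a number and at most 1 letter. They were chosen by symbol, chromosome and a mean level of at least 1 FPKM, a read count scaled by transcript length and library size, over all 6 samples. Of 253 such genes among the 26255 listed, 219 passed that limit, and 34 did not. The level used for the choice is a description of the members and is not a result.

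RNA was sequenced from 22RV1 cells, a single established human line of castration-resistant prostate cancer. The cells grew in RPMI medium with fetal bovine serum, so androgen was present in both groups. They received either the vehicle DMSO (3 samples) or 10 nM bruceantin (BCT; 3 samples) for 24 h. Bruceantin is a plant quassinoid known to inhibit protein synthesis. The question was which chromosome 19 ZNF genes differed in RNA level between BCT and DMSO.

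Most ZNF genes of chromosome 19 encode C2H2 zinc finger proteins, in which a row of fingers, each folded around a zinc ion, reads a DNA sequence. Many also carry a KRAB box, a domain that recruits the corepressor TRIM28 (KAP1), which in turn brings the histone methyltransferase SETDB1 and the HP1 proteins and silences the bound DNA, often a transposable element. The genes arose by repeated local duplication and lie in dense clusters, so neighbours resemble each other in sequence.

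One part that many of these genes have in common is the short linker between consecutive fingers. The 15-base coding stretch found in the reading frames of more members than any other was the following.

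finger linker: catactggagagaaa

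In amino acids it codes for HTGEK, a histidine and then the linker TGEKP without its last residue. This stretch lay in transcripts of 99 of the 219 members (45.2%), of 42 of 218 expressed ZNF genes on other chromosomes (19.3%) and of 7 of 11842 other expressed genes (0.0591%). The sequence came from GENCODE transcripts of the hg19 build. Despite the shared linkers, 165 members had no stretch of 100 bases in common with a gene elsewhere in the genome, and the highest share of such stretches was 23.7%, in ZNF98, whose closest copy is ZNF492. Levels of near-copies such as ZNF98 and ZNF492, ZNF587 and ZNF417, and ZNF443 and ZNF799 are therefore uncertain. This also holds for pairs called higher in BCT, ZNF585A and ZNF585B (5.91% and 8.15% shared) and ZNF419 and ZNF773 (4.19% and 4.31%). Genes that overlap a member in position were left out of these shares.

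Start regions are shown for the members with the largest rises and falls, since the level of a transcript depends in part on its promoter. RefSeq gave a promoter window for 186 of the 219 members. The 250 bases before the annotated gene start (GRCh38.p14, printed along the strand of the gene) of the 4 largest rises and the 2 largest falls among them follow, with 2 motifs in capitals, CTTCCGG (the core bound by ETS factors) and CCAAT.

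ZNF671 (chr19:57727625-57727874, minus strand): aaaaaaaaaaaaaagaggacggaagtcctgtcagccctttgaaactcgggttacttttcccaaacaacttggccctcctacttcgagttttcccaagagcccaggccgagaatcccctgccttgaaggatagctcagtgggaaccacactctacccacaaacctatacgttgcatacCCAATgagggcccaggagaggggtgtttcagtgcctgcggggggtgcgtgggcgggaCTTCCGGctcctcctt
ZNF556 (chr19:2867085-2867334, plus strand): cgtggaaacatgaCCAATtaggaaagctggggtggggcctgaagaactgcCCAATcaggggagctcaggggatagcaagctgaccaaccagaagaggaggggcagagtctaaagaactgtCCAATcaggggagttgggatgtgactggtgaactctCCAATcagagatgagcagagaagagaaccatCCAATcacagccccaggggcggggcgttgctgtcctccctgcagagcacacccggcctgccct
ZNF844 (chr19:12064481-12064730, plus strand): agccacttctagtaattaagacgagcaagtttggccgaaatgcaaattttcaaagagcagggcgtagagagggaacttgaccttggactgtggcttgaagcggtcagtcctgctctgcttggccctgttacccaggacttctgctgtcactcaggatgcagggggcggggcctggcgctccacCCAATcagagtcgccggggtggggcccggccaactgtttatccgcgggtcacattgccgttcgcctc
ZNF442 (chr19:12365684-12365933, minus strand): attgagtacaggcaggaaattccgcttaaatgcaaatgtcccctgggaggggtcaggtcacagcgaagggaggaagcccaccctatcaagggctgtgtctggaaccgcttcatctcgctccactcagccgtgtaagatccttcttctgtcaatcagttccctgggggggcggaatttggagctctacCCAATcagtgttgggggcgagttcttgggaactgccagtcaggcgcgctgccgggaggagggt
ZNF667 (chr19:56477346-56477595, minus strand): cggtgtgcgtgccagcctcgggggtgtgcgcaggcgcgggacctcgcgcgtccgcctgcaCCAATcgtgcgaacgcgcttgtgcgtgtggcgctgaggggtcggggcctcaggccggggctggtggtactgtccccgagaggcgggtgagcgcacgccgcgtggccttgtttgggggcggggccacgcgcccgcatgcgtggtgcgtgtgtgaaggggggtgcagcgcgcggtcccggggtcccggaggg
ZNF730 (chr19:23116775-23117024, plus strand): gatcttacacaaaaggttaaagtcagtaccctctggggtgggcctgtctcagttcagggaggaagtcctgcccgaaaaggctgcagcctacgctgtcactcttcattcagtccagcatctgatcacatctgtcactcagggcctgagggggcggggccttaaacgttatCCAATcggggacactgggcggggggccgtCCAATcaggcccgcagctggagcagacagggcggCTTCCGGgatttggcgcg

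CTTCCGG stood 16 bases before the start of ZNF671, which rose, and 18 bases before that of ZNF730, which fell. ZNF556 held 5 CCAAT motifs and each of the other 5 held 1 or 2. These genes were picked by the size of their change, and only ZNF844 had a mean of at least 1 FPKM in each group. In windows from 250 bases before to 50 after the start, read on both strands, CTTCCGG occurred in 86 of 186 members (46.2%), against 20.2% of all tested genes with a window and 10.7% of all windows in the table. CCAAT occurred in 53.8% of the members and in 37.6% of the tested genes (35.7% of all windows). Among ZNF genes of other chromosomes with a window, CTTCCGG occurred in 36.6% and CCAAT in 45.7%. Within the members, CTTCCGG occurred in 41.9% of those called higher in BCT and in 48.6% of those not called. The other motifs searched were no more frequent in the members than in the tested genes. GGGCGG occurred in 66.7% of members, 71.0% of tested genes and 44.6% of all windows, and the NRF1 motif in 12.4%, 12.4% and 6.28%. TGACGTCA occurred in 3.23%, 3.39% and 1.98%, and TATAAA in 2.15%, 5.38% and 11.95%. Motifs were searched one by one, so matches of different motifs may overlap, and each window was counted once per motif.

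None of the 9 markers of prostate luminal epithelium was absent, and they summed to 1079 to 1106 FPKM in DMSO and 1993 to 2128 in BCT, with KRT8 and KRT18 higher and KLK3 lower in BCT. The 3 leukocyte and 3 endothelial markers were below 1 FPKM throughout, and the 4 fibroblast markers summed to 2.52 to 2.66 FPKM in DMSO and 5.83 to 6.97 in BCT, mostly COL1A1. Their part in the results was not tested. In bulk RNA, fewer cells of a type and less RNA per cell cannot be told apart. The deposited values carry no read counts, and steps between low values put the depth of the libraries at 0.874 to 1.13 of that of DMSO replicate 1. One small RNA gene, MIR6087, took 43.5% to 55.3% of the FPKM sum in DMSO and 31.7% to 32.5% in BCT. Among the BCT samples replicate 1 stood apart, since it was the lowest of the 3 for 80 of the 82 members called higher (97.6%), and for 85.9% of all genes called higher, at a median of 0.836 times the mean of the other 2 for those members. Without BCT replicate 1, 90 members were called higher and 8 lower.

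A gene was called when its log2 fold change between BCT and DMSO exceeded 0.85 in size with a false discovery rate below 0.05, by limma on log2(FPKM + 0.1) over the 12729 genes whose mean reached 1 FPKM. Fold changes below are on that scale, which understates the change of low genes. The p-values measure the spread between samples labelled as replicates, which nothing in the labels says were separate cultures.

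More chromosome 19 ZNF genes rose than fell after BCT. Of the 219 members, 82 were called higher (37.4%), where 13.9% of all tested genes were, and 8 were called lower (3.65%), where 17.8% of all tested genes were. The remaining 129 were not called. Their summed level was 1072 to 1099 FPKM in the DMSO samples and 1505 to 1713 FPKM in the BCT samples, without overlap. The median log2 fold change over the members was 0.59, against −0.04 over all tested genes, and it was 0.47, 0.65 and 0.65 in BCT replicates 1, 2 and 3 (SD 0.104). All 3 BCT values of a member lay above all 3 DMSO values in 163 cases and below them in 27, and the corresponding shares over all tested genes were 41.0% and 44.3%.

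The level limit let in 9 members only through BCT. They were ZNF671, ZNF556, ZNF442, ZNF763, ZNF229, ZNF577, ZNF699, ZNF610 and ZNF677, of which 7 were called higher, all but the last 2. It let in 2 only through DMSO, ZNF667 and ZNF730, both called lower. Of the 208 members with a mean of at least 1 FPKM in both groups, 75 were called higher and 6 lower, against 12.5% and 16.7% of all genes held to the same limit. Just inside the limit stood ZNF677 (mean 1.04 FPKM), ZNF738 (1.07) and ZNF610 (1.08), and just outside it ZNF546 (0.858), ZNF224 (0.827) and ZNF547 (0.818).

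ZNF genes of other chromosomes also leaned upward, with 59 of 222 called higher (26.6%), 8 called lower and a median change of 0.46 on the log2 scale. The 735 other expressed genes of chromosome 19 leaned the other way, with 69 called higher (9.39%), 173 called lower (23.5%) and a median of −0.24. The difference between these groups was not tested.

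**Figure D1:**
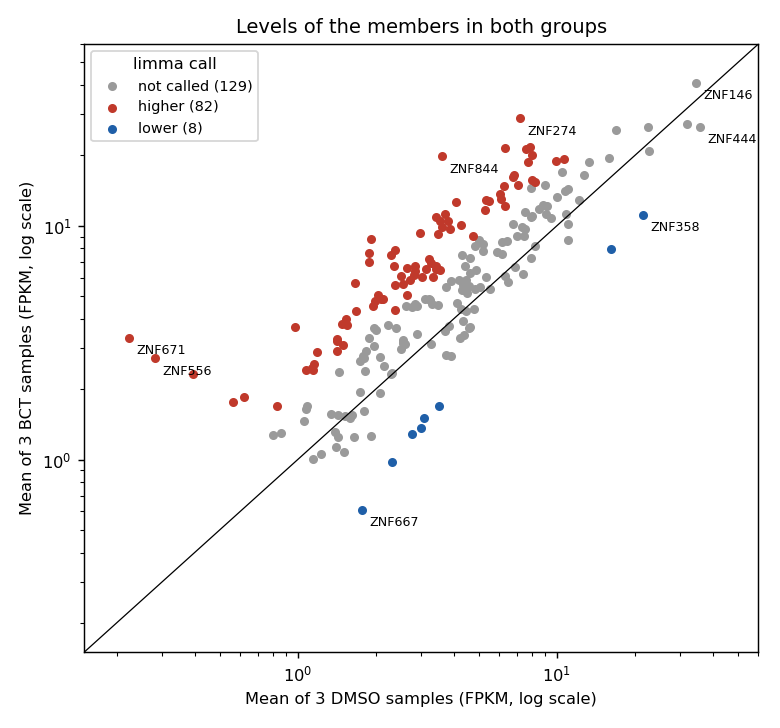
Mean level of each member in the 3 BCT samples against the 3 DMSO samples (FPKM, both axes on a log scale; the line marks equal levels; colours give the limma call). Most members lie above the line, and none of the 6 most abundant is among the 82 called higher.

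The largest rise was that of ZNF671, a KRAB zinc finger gene of the last cluster of the chromosome that is often silenced by promoter methylation in carcinomas. It stood at 0.232, 0.188 and 0.252 FPKM in the DMSO samples and at 2.34, 3.65 and 3.97 FPKM in the BCT samples. The gene was thus near the bottom of the measured range in every DMSO sample and well above it in every BCT sample. The log2 fold change was 3.37 ± 0.23 (SE; limma, Benjamini-Hochberg adjusted p = 3.2e-06).

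ZNF556, a KRAB gene of a small cluster at the start of the short arm, followed the same course. Its DMSO values were 0.395, 0.155 and 0.294 FPKM and its BCT values 1.64, 3.24 and 3.25 FPKM. The groups did not overlap, and BCT replicate 1 was the lowest of the BCT samples. Its log2 fold change was 2.87 ± 0.34 (limma, adjusted p = 6.2e-05).

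The next rises were those of ZNF844 and ZNF442, KRAB genes of 1 cluster on the short arm. ZNF844 stood at 3.85, 3.22 and 3.76 FPKM in DMSO and at 16.03, 22.3 and 21.2 FPKM in BCT, a log2 fold change of 2.41 ± 0.13 (limma, adjusted p = 1.2e-06). ZNF442 stood at 0.415, 0.298 and 0.473 FPKM in DMSO and at 1.84, 2.92 and 2.23 FPKM in BCT, a log2 fold change of 2.29 ± 0.23 (limma, adjusted p = 2.3e-05). ZNF844 reached a level that few members had, while ZNF442 stayed low in both groups.

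ZNF274, a KRAB protein known to bind the 3′ ends of other zinc finger genes and to bring SETDB1 there, came next but for ZNF416, and in BCT only ZNF146 stood higher among the members. In DMSO it stood at 7.31, 7.26 and 7.09 FPKM and in BCT at 24.1, 33.2 and 29.3 FPKM. The DMSO samples were nearly equal, and every BCT sample was more than 3 times as high. The log2 fold change was 1.97 ± 0.11 (limma, adjusted p = 1.2e-06). ZNF416 stood at 1.96, 1.80 and 1.99 FPKM in DMSO and at 7.36, 9.72 and 9.23 FPKM in BCT (2.13 ± 0.11; limma, adjusted p = 1.1e-06). The other rises of the first 12 were those of ZNF461, ZNF606, ZNF763, ZNF134, ZNF222 and ZNF211. Their log2 fold changes were 1.96, 1.83, 1.82, 1.75, 1.69 and 1.68. Lack of overlap between the groups was a condition for the choice of these 12.

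Only 8 members were called lower. ZNF667 fell most, from 1.75, 1.78 and 1.77 FPKM in DMSO to 0.599, 0.550 and 0.676 FPKM in BCT. Its log2 fold change was −1.40 ± 0.15 (limma, adjusted p = 3.9e-05). ZNF730, of the large cluster near the centromere, stood at 2.31, 2.37 and 2.28 FPKM in DMSO and at 0.897, 1.09 and 0.947 FPKM in BCT (−1.17 ± 0.12; limma, adjusted p = 3.4e-05). Replicates of both genes lay close together and the groups were far apart.

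ZNF813 (−1.09), ZNF114 (−1.05), ZNF321P (−1.04) and ZNF726 (−0.98) were at means of 2.76 to 3.51 FPKM in DMSO and 1.29 to 1.70 FPKM in BCT. ZNF321P shares its listed span with ZNF816, so reads of the pair may have been split between them. ZNF524 and ZNF358, both GC-rich and with no KRAB box found, were the only members with a mean of at least 5 FPKM that were called lower. ZNF524 went from 16.3, 14.4 and 17.8 FPKM to 8.28, 8.50 and 7.02 FPKM (−1.02 ± 0.10; limma, adjusted p = 2e-05). ZNF358 went from 22.2, 19.4 and 23.1 FPKM to 12.05, 10.7 and 10.8 FPKM (−0.94 ± 0.08; limma, adjusted p = 1e-05). Neither was called after a correction for GC content and length, with log2 fold changes of −0.71 and −0.50. When every sample was rescaled to the same FPKM sum, which shifted the median of all genes to 0.72, none of the 8 was called lower, although each kept a negative value.

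None of the 6 most abundant members was called. ZNF146 (OZF), which consists of fingers with no repressor domain, stood at 34.2, 35.3 and 34.1 FPKM in DMSO and at 41.4, 39.3 and 42.0 FPKM in BCT (log2 fold change 0.24 ± 0.05; limma, adjusted p = 0.0017). ZNF444 stood at 35.3, 34.8 and 36.8 FPKM in DMSO and at 25.9, 28.1 and 25.7 FPKM in BCT (−0.42 ± 0.06; limma, adjusted p = 0.00012). Neither reached the fold limit. The next 4 by level, ZNF428, ZNF580, ZNF581 and ZNF787, had log2 fold changes of −0.22, 0.24, −0.12 and 0.60. ZNF787, at means of 17.0 FPKM in DMSO and 25.8 in BCT without overlap, passed the false discovery rate but not the fold limit (limma, adjusted p = 1.4e-05). ZNF428, ZNF444 and ZNF581 took a positive sign when every sample was rescaled to the same FPKM sum. Across the 219 members the fold change and the DMSO level had a Spearman correlation of −0.21, a description over genes that share the same libraries.

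The 253 genes formed 20 position clusters when a gap of over 500 kb began a new one. Of these, 8 held at least 5 members and 202 members in all, named A to H here in chromosome order. Positions are in hg19. Members named below only within a row of neighbours or a count were picked after their values were seen. Cluster A lies at chr19:8575462-9879410, B at chr19:11594242-12740676, C at chr19:19778962-24312769 and D at chr19:36672962-38270230. Cluster E lies at chr19:44037340-45004575, F at chr19:52074531-54083523, G at chr19:55987699-57183123 and H at chr19:57702868-59000900.

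Clusters B, D, E and H had the highest medians of the 8. In B 12 of 24 members were called higher, in D 13 of 25, in E 9 of 19 and in H 20 of 40, and none was called lower in these 4. Their median log2 fold changes were 0.85, 0.85, 0.80 and 0.80. In A 5 of 11 were called higher and none lower (median 0.44), and in F 13 of 39 higher and 2 lower (0.46). The share called was lower in C and G, with 4 of 29 higher and 2 lower in C (median 0.37) and 2 of 15 higher and 2 lower in G (0.29). Over all tested genes 13.9% were called higher and 17.8% lower. The shares called higher in C (13.8%) and G (13.3%) were thus near that of all tested genes. The 17 members of the other 9 clusters held 4 called higher, ZNF556, ZNF554, ZNF181 and ZNF507, and 2 called lower, ZNF358 and ZNF114. Some called members had passed the level limit only through the group where they were high. Through BCT these were ZNF699 in A, ZNF442 and ZNF763 in B, ZNF229 in E, ZNF577 in F, ZNF671 in H and ZNF556. Through DMSO they were ZNF730 in C and ZNF667 in G. Differences between clusters were not tested.

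In cluster A, on the short arm, the fold changes ran from 0.02 (ZNF812) to 1.58 (ZNF426). ZNF426 stood at 3.52, 4.01 and 3.60 FPKM in DMSO and at 10.4, 11.5 and 11.97 FPKM in BCT. The members on either side of it, ZNF266 and ZNF121, had log2 fold changes of 0.41 and 0.44 and were not called, and the next 2, ZNF561 and ZNF562, were called higher at 1.44 and 1.25. The most abundant member of A, ZNF414, which is GC-rich and without a KRAB box, had a value of 0.29 and was not called.

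In cluster B, 5 neighbours in a row were called higher: ZNF763, ZNF433, ZNF844, ZNF20 and ZNF625, with log2 fold changes of 1.08 to 2.41. ZNF20 and ZNF625 share a listed span, so reads of the pair may have been split between them. ZNF763 stood at 1.04, 0.911 and 0.966 FPKM in DMSO and at 3.23, 4.25 and 3.64 FPKM in BCT. Farther along the same cluster a row of 6, from ZNF799 to ZNF791, held no call, with values of −0.36 (ZNF443) to 0.78. ZNF791 was the most abundant member of B, at a mean of 10.5 FPKM in DMSO and 17.0 in BCT.

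Cluster C lies beside the centromere and holds primate-expanded genes, among them ZNF91, which represses SVA elements, and ZNF93, which represses LINE-1 elements. ZNF91 stood at 6.54, 5.95 and 6.35 FPKM in DMSO and at 12.3, 15.8 and 16.2 FPKM in BCT (log2 fold change 1.21 ± 0.10; limma, adjusted p = 1.1e-05). ZNF93 stood at 11.7, 10.2 and 10.6 FPKM in DMSO and at 9.68, 12.5 and 11.7 FPKM in BCT (0.05 ± 0.10; limma, adjusted p = 0.64). The first gene was thus higher in every BCT sample, while the groups overlapped for the second, whose sign turned with the sample left out. Of the rest, ZNF14, ZNF429 and ZNF506 were called higher and ZNF730 and ZNF726 lower. The 11 neighbours from ZNF253 to ZNF493 held no call, at −0.18 to 0.76, and among them ZNF430 and ZNF431 had values of 0.38 and 0.76. ZNF675, an inhibitor of TRAF6 signalling and the most abundant member of C, had a value of 0.48.

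In cluster D, 7 neighbours from ZNF790 to ZNF383 were called higher, at 0.85 to 1.20. ZNF568, whose mouse relative represses a placental Igf2 transcript, is among them and lay at the limit (0.85), so that its call was lost in 2 of the 6 fits that left out a sample. ZNF461 had the largest rise in D, from 1.94, 2.04 and 1.68 FPKM in DMSO to 6.23, 8.25 and 8.48 FPKM in BCT. ZNF382, at means of 1.14 FPKM in DMSO and 2.47 in BCT, was also called higher (1.06), but not with a pseudocount of 1 (0.70), after the GC and length correction (0.81) or in a limma test against the fold limit itself. ZNF345 lay at the other end (−0.46) and was not called. ZNF345, ZNF829 and ZNF790 share a listed span, as do ZNF146 and ZNF565. ZNF540 and ZNF571 also share 1, and ZNF571 was called higher (1.22).

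Cluster E holds a family of duplicated KRAB genes, of which 4 neighbours, ZNF155, ZNF230, ZNF222 and ZNF223, were called higher. ZNF222 stood at 1.72, 1.48 and 1.82 FPKM in DMSO and at 4.51, 6.74 and 5.80 FPKM in BCT (log2 fold change 1.69 ± 0.15; limma, adjusted p = 1.2e-05). ZNF226 and ZNF227 were the most changed of its abundant members, at 1.32 and 1.47. ZNF285 lay at the low end with −0.38 and was not called.

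Cluster F showed 2 stretches that differed, a split chosen after the values were seen. From ZNF175 to ZNF836 (chr19:52074531-52674896), 10 of 11 members were called higher, at a median of 1.18, and the first 9 of them stand in a row. Among these, ZNF577 passed the level limit only through BCT. ZNF577 led with 1.42 from low values, and ZNF649, a repressor of growth factor response genes, stood at 3.05, 2.64 and 2.85 FPKM in DMSO and at 6.37, 6.94 and 6.91 FPKM in BCT (1.22 ± 0.08; limma, adjusted p = 2.7e-06). In the 28 members after ZNF836, 3 were called higher (ZNF528, ZNF160 and ZNF331) and 2 lower (ZNF321P and ZNF813), at a median of 0.21. These were 10.7% and 7.14% of that stretch, against 13.9% and 17.8% of all tested genes. In the same stretch 10 neighbours from ZNF808 to ZNF888 held no call, at −0.34 to 0.59. ZNF808, needed for pancreas development, had a value of 0.59, and ZNF765 one of 0.15. ZNF160, the most abundant member of F, rose from a mean of 6.82 to 16.5 FPKM, and ZNF331, the last gene of the cluster, from 5.46 to 12.8 FPKM.

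In cluster G, 8 neighbours from ZNF865 to ZNF582 held no call, and several of them are short GC-rich genes. ZNF583 and ZNF471 were called higher, at 1.23 and 1.33, and stand on either side of ZNF667, the largest fall of all members. ZNF471 stood at 1.63, 1.47 and 1.502 FPKM in DMSO and at 3.55, 4.27 and 4.22 FPKM in BCT. Opposite changes thus occurred between direct neighbours.

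Cluster H, the last of the chromosome, held ZNF671, ZNF416, ZNF274, ZNF606, ZNF134 and ZNF211, 6 of the 12 largest rises. ZNF460, ZNF543, ZNF304, ZNF548 and ZNF17 stood in a row at 1.15 to 1.305, and ZNF606, ZNF329, ZNF274 and ZNF544 in another at 0.92 to 1.97. Before the latter row 7 neighbours from ZNF552 to ZNF256 held no call (−0.08 to 0.67), and the last 8 members of the chromosome, from ZNF8 to ZNF446, held none either (−0.32 to 0.69). ZNF587 (−0.05), ZNF132 (−0.29) and ZNF837 (−0.32) were the lowest named values in H. ZNF132 stood at 1.51, 1.21 and 1.51 FPKM in DMSO and at 1.14, 1.13 and 1.12 FPKM in BCT (limma, adjusted p = 0.097).

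Over the 202 pairs of neighbouring members of 1 cluster, the fold changes had a Pearson correlation of 0.26 and a Spearman correlation of 0.34, with a median difference of 0.51. These pairs share libraries and, in part, sequence and listed spans, and the value is a description.

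By protein class, a KRAB box was found by a sequence pattern in the reading frames of 182 members, of which 76 were called higher (41.8%) and 5 lower, at a median log2 fold change of 0.66. Of the 30 protein-coding members without a match, 6 were called higher and 2 lower (median 0.29). A member without a match may still have the domain. The 7 members that GENCODE does not list as coding held 1 called lower, ZNF321P, and none higher (median 0.02). The 22 members whose longest transcript had at least 55% GC held 1 called higher, ZNF653, and 2 lower (median 0.21). Among members below 55% GC the median was 0.68 for the 179 with a KRAB box and 0.36 for the 18 without. The number of fingers, 12 in the median and 31 at most (ZNF91), had a Spearman correlation of 0.06 with the fold change. The share called higher was 37.1% with 1 to 9 fingers, 40.0% with 10 to 14 and 35.9% with 15 or more.

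The Spearman correlation of the fold change with GC content was −0.19 over 12285 genes and −0.01 over the 219 members, while Pearson's was −0.17 and −0.16, whose median GC content was 42.1% against 48.1% for all tested genes. After a correction of each sample for GC content and transcript length, 71 members were called higher and 6 lower, at a median of 0.52. Exons of 73 members were overlapped by a gene on the opposite strand, and the library kit used does not mark strand, so reads of such pairs cannot be told apart. Exons of 89 members were overlapped by a gene on the same strand. Of these 89, 29 were called higher (32.6%) and 4 lower, at a median of 0.47, against 13.9% and 17.8% of all tested genes. With overlapping genes counted, 43.2% of the stretches of ZNF844 and 42.1% of those of ZNF763 were shared. Of the 78 members whose exons no other gene overlapped, 30 were called higher (38.5%) and none lower, at a median of 0.60. The 25 members that share a listed span with another gene held 10 called higher (40%) and 1 lower, at a median of 0.46. The largest rise among those 25 was that of ZNF606 (1.83). Of the 54 members with any stretch shared with a gene elsewhere, 13 were called higher (24.1%), at a median of 0.26. Of the 165 with none, 69 were (41.8%), at a median of 0.64. Of the 12 with over 5% of their stretches shared elsewhere, 2 were called higher (16.7%, against 13.9% of all tested genes). The difference between these classes was not tested.

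The cofactors of KRAB proteins were given from a list of 28 genes, of which 27 passed the level limit. Of those, 2 were called higher (7.41%) and 6 lower (22.2%), against 13.9% and 17.8% of all tested genes, and the median log2 fold change was −0.15. TRIM28, the corepressor that KRAB boxes bind, stood at 246.9, 251.6 and 251.6 FPKM in DMSO and at 176.9, 177.9 and 171.1 FPKM in BCT, a log2 fold change of −0.51 ± 0.04 that did not reach the fold limit (limma, adjusted p = 9.9e-06). SETDB1, which methylates histone H3 at the bound sites, had a value of 0.36. The HP1 genes CBX1, CBX3 and CBX5, which bind that mark, were all called lower (−1.14, −1.29 and −1.22). HDAC1 (−0.93) and the DNA methylation genes DNMT3A (−1.03) and UHRF1 (−2.60) were also called lower. UHRF1, which brings DNMT1 to replicated DNA, stood at 30.9, 31.3 and 28.8 FPKM in DMSO and at 6.34, 4.197 and 4.48 FPKM in BCT. ATRX (1.03) and FAM208A (0.90), the latter a subunit of the HUSH silencing complex, were called higher, and the other HUSH genes MPHOSPH8 (0.06) and PPHLN1 (−0.23) were not called.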

How the data were processed

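RNA-seq libraries from 22RV1 cells kept for 24 h in 10 nM BCT or in vehicle (3 samples each) were made with a TruSeq RNA kit that does not mark strand. The authors deposited 1 FPKM value per gene and sample. The submitters' processing notes name CASAVA, Trimmomatic 0.38, HISAT2 and HTSeq and the hg19 build. The study's methods name StringTie for the assembly of mapped reads, do not name HTSeq, and place the calculation of FPKM after alignment. The accounts thus differ in the step that assigned reads to genes. FPKM values are relative to all RNA of a library and depend on the transcript length used, and they carry no read counts per gene.

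The deposited FPKM were used without further scaling. Genes whose mean reached 1 FPKM were tested on log2(FPKM + 0.1) with limma 3.58.1 in R 4.3.3 (moderated test with a mean-variance trend, 2-sided, Benjamini-Hochberg adjustment over 12729 genes). Groups came from the titles and treatments in the labels. A call needed an absolute log2 fold change above 0.85 and a false discovery rate below 0.05. The limma calls and the GC and length correction were tested on simulated data.

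Listed starts were raised by 1, since this matched annotated transcript starts for 8386 of 23285 genes against 913 as deposited. Transcript length, GC content, shared 100-base stretches, fingers and the KRAB pattern came from reading frames of GENCODE transcripts for hg19, as no protein table was used. Promoter windows came from RefSeq (GRCh38.p14). Named members were the 6 most abundant, the 12 largest called rises and all 8 called falls (groups without overlap), the most abundant and both extremes of each cluster of at least 5 members, 19 genes with a published role, those nearest the level limit, and the cofactor and other zinc finger lists. The members and lists were chosen with earlier results of these data known. Alternatives were other pseudocounts (0.01 and 1), level limits, scalings, thresholds, a variance model without trend, a replicate block, a GC and length correction, and leaving out each sample. Python 3.11.15 drew the plots.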

Additional observations from a re-analysis of the deposited data

How the results depend on the processing

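The median log2 fold change of the members exceeded that of all genes by 0.49 (pseudocount 1) to 0.69 (without BCT replicate 1), against 0.63 in the reported fit, over all alternatives run. The reported counts were 82 called higher, 8 called lower and a median of 0.59. Rescaling to equal FPKM sums gave 168, 0 and 1.33, and the same without MIR6087 gave 124, 1 and 0.96; these scalings shifted the median of all genes to 0.72 and 0.34. A pseudocount of 1 gave 2 called lower and a median of 0.46. A limit of 5 FPKM, which keeps 97 members, gave 37 and 2. A limma test against the fold limit itself gave 50 and 1. Of members with under 5% of their stretches shared with any other gene, 140 in all, 53 were called higher. Leaving out 1 sample gave 77 to 90 called higher, 8 to 8 called lower and a median of 0.55 to 0.65. The GC and length correction gave 71, 6 and 0.52, with or without the replicate block. Of the 82, 69 remained called after that correction and 59 with a pseudocount of 1.

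A replicate block gave 82 called higher, 8 called lower and a median of 0.59, so the paired fit changed no call of a named member. Deviations of same-numbered samples correlated at 0.116, 0.033 and 0.034, and not every sample correlated best with its own number. Correlations this weak cannot decide whether the replicate numbers pair the samples.

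Of 1031 values of the 53 named members under the alternatives, 935 kept direction and side of the limit, 44 fell short of it, 22 newly passed it and 30 changed sign; none of those 30 belongs to a called member. With equal FPKM sums the values were 0.43 (ZNF132), 0.34 (ZNF285), 0.26 (ZNF345), 0.55 (ZNF428), 0.39 (ZNF443), 0.34 (ZNF444), 0.64 (ZNF581), 0.70 (ZNF587), 0.53 (ZNF738) and 0.43 (ZNF837). Without MIR6087 they were 0.07 (ZNF132), 0.17 (ZNF428), 0.02 (ZNF443), 0.26 (ZNF581), 0.33 (ZNF587), 0.18 (ZNF738) and 0.06 (ZNF837). With the GC and length correction, with or without the block, they were 0.00 (ZNF444), 0.07 (ZNF581), −0.02 (ZNF812), 0.15 (ZNF837) and −0.01 (ZNF93). Leaving out 1 sample gave −0.06 (without DMSO replicate 3), −0.00 (without BCT replicate 2) to 0.08 for ZNF812 and −0.03 (without BCT replicate 2) to 0.16 for ZNF93. The cause of these changes was not tested. FPKM carry no counts, so the counting error of low members such as ZNF671 in DMSO is unknown.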

Other observations

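The 34 ZNF genes of chromosome 19 below the level limit had a median of 0.474 FPKM, and 8 of them averaged under 0.1 FPKM. The mean was higher in BCT for 24 and in DMSO for 9, and 1 gene was listed at 0 in every sample. ZNF546 stood at 0.478, 0.381 and 0.424 FPKM in DMSO and at 1.17, 1.23 and 1.46 FPKM in BCT. ZNF415 stood at 0.278, 0.279 and 0.296 FPKM in DMSO and at 0.997, 1.21 and 1.13 FPKM in BCT. These 2 were the only ones with a mean of at least 1 FPKM in BCT, and ZNF415 was picked after its values were seen. ZNF224, a repressor of the aldolase A gene, overlapped between the groups at 0.636 to 1.007 FPKM in DMSO and 0.718 to 1.06 FPKM in BCT, and ZNF154 was below 0.1 FPKM throughout.

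Other C2H2 zinc finger genes of chromosome 19, which carry other name stems, were given from a list of 17, of which 16 were listed and 10 passed the level limit. Of these 10, 2 were called higher (20%) and none lower by limma, where 13.9% and 17.8% of all tested genes were, at a median log2 fold change of 0.43. ZSCAN18 rose from 3.38, 3.31 and 3.50 FPKM in DMSO to 7.24, 10.5 and 10.2 FPKM in BCT (1.41 ± 0.13; limma, adjusted p = 1.8e-05). ZIK1 rose from 1.12, 0.960 and 1.33 FPKM in DMSO to 1.87, 2.77 and 2.79 FPKM in BCT (1.05 ± 0.19; limma, adjusted p = 0.00086). Both lie within the span of the last ZNF cluster of the chromosome. ZFP14 (−0.73) and ZBTB45 (−0.50) had the lowest values and were not called.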
